A study of Rattus norvegicus with 6 samples.

Results

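The genes described here are 38 targets and regulators of the transcription factor Nrf2 and enzymes of the glutathione and thioredoxin systems, chosen by name as rows of the deposited expression table. Of these, 37 had a row among the 18286 genes of the table, and Pgd, a dehydrogenase of the pentose phosphate pathway, had none. They were grouped by role, with 11 genes of glutathione, 11 of thioredoxin and peroxiredoxin, 4 of NADPH supply, 4 of iron and haem, 5 that act on quinones, superoxide and peroxide or are other Nrf2 targets, and 3 regulators. Of the 37, 36 had a mean of at least 1 RPKM (reads per kilobase of exon, scaled to the library's total) over all 6 libraries and were tested. Gsto1, a glutathione transferase gene, was not, with 1 read in control replicate 1 and 0 reads in the other 5 libraries.

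The study measured RNA of RBL-2H3, a mast cell model line that derives from a basophilic leukemia of the rat, in 3 libraries of cells given dihydrocoumarin (DHC), a lactone related to coumarin, and 3 control libraries with no treatment named. The title of the series gives IgE-dependent activation as what DHC was tested against. One protocol is given for all 6 samples: 12 h with anti-DNP IgE at 50 ng/ml, a wash, then 4 h with the antigen DNP-HSA at 100 ng/ml. The labels do not say whether control cells went through these steps, nor the dose or duration of DHC. They do not state that replicates were separate cultures, so p-values measure the spread between libraries, which may be technical.

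Nrf2, encoded by Nfe2l2, is held in the cytosol by Keap1, which directs it to degradation. When reactive compounds modify Keap1, Nrf2 accumulates, pairs with small Maf proteins and binds antioxidant response elements in DNA, sites that the repressor Bach1 can occupy instead. Its targets make and recycle glutathione and thioredoxin, supply NADPH, and handle haem, iron and quinones. In mast cells, reactive oxygen species form on IgE receptor stimulation.

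With DHC the 36 tested genes did not move in 1 direction. Gclc, the catalytic subunit of the rate-limiting enzyme of glutathione synthesis, was 1.51-fold higher, the peroxiredoxin gene Prdx1 1.24-fold higher and Sod2, the mitochondrial superoxide dismutase, 1.26-fold higher. Osgin1, an oxidative stress-induced growth inhibitor gene, was 3.25-fold lower. Hmox1, which breaks down haem, was 1.43-fold lower, the thioredoxin reductase gene Txnrd1 1.36-fold lower and the cystine transporter gene Slc7a11 1.31-fold lower. In all, 6 of 36 tested members rose and 5 fell (limma on log2(RPKM + 1), Benjamini-Hochberg adjusted p below 0.05 over all genes), and 25 did not pass. Among all 10667 genes tested, 18.4% rose and 16.1% fell, 34.5% in all, so the share of members that passed, 30.6%, was near the background. The median log2 fold change was 0.02 for the members and 0.05 for all genes tested. The median size of a change, whatever its sign, was 0.15 for the members and 0.19 for all genes. With trimmed-mean scaling between libraries, 4 members rose and 7 fell, and over all genes 1285 rose and 2114 fell, against 1968 and 1717 with the deposited scaling. Without DHC replicate 2 or without control replicate 2, 3 members rose.

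**Figure D1:**
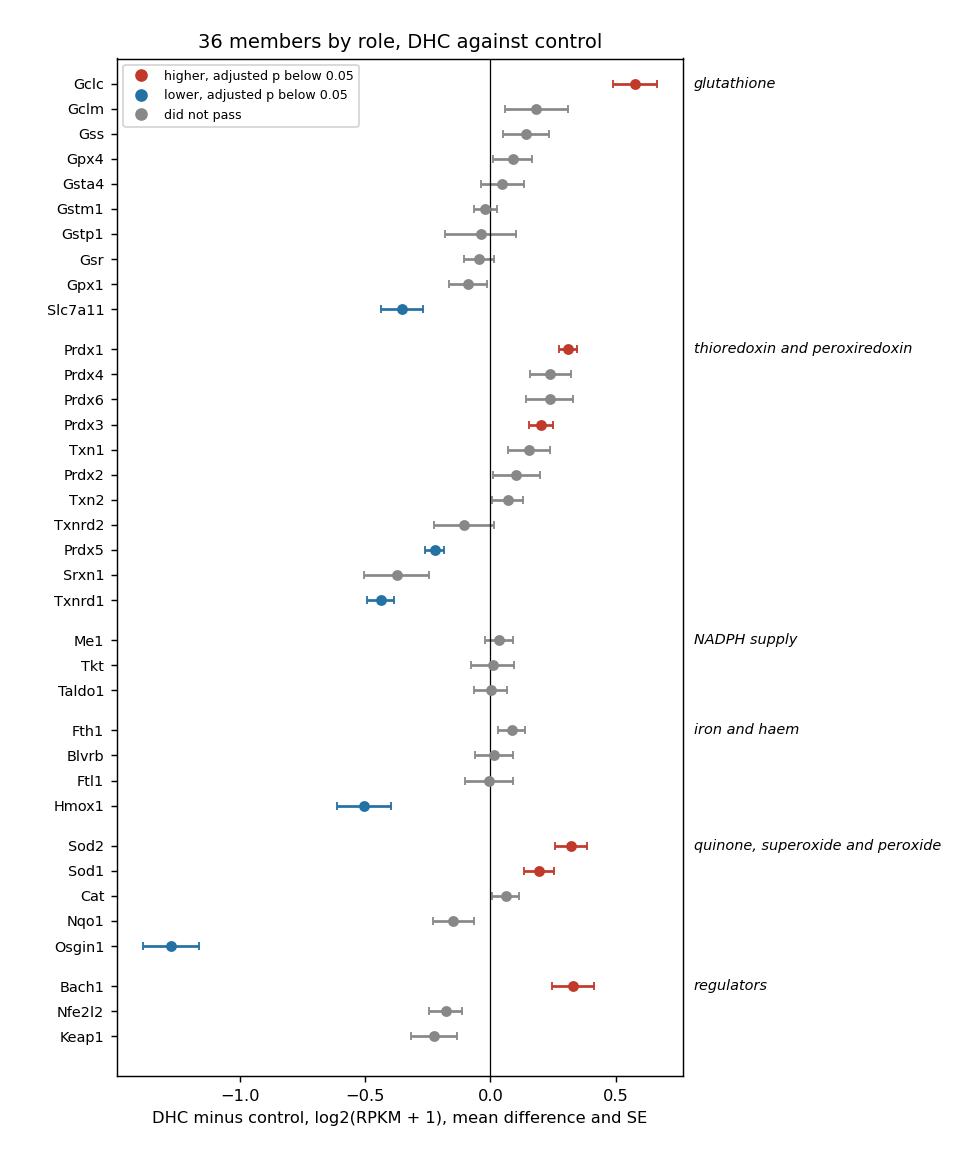
Difference between DHC and control libraries for the 36 tested members, on the log2(RPKM + 1) scale (horizontal axis), grouped by role. Points are mean differences, bars are standard errors, red marks the 6 genes that rose, blue the 5 that fell and grey the 25 that did not pass; Osgin1 at −1.28 and Gclc at 0.58 are the extremes.

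The libraries held between 29190987 and 31299551 reads assigned to genes with DHC and between 29084976 and 34170922 in control. At this depth 3 reads, the limit that a count of 0 allows, correspond to between 0.0878 and 0.103 RPM, reads scaled to the library's total, for counting error only. The 7 identity genes of the line that were checked, among them the IgE receptor genes Fcer1a, Ms4a2 and Fcer1g, were all detected, and they summed to between 690.1 and 715.9 RPKM with DHC and between 974.0 and 999.0 RPKM in control. Most of that difference lay in Gata2, at 69.9 RPKM with DHC and 344.6 RPKM in control, and Kit, at 64.4 RPKM with DHC and 114.7 RPKM in control, while Ms4a2 was at 368.5 RPKM with DHC and 320.9 RPKM in control. Of the T cell markers Cd3e stood between 40.5 and 43.7 RPKM with DHC and between 31.7 and 37.4 RPKM in control, while Cd3d, Cd3g, Cd4 and Cd8a were below 1 RPKM in every library, as were the 2 B cell and 2 fibroblast markers in the table. Of the 4 macrophage markers Cd68 was the 1 that reached 1 RPKM, with a mean of 1.30 RPKM with DHC and 0.931 RPKM in control, and of the 2 epithelial markers Krt8 did, with a mean of 2.19 RPKM with DHC and 1.89 RPKM in control. What part cells with these markers have in the results was not tested. Reads of the mitochondrial chromosome made up 4.00% ± 0.127 of the total with DHC and 3.44% ± 0.0956 in control (SD, n = 3 each). On the second principal component, which held 12.8% of the variance, libraries of the same number lay close together. Those numbered 1 of both groups stood apart from the others. In bulk RNA, fewer cells that express a gene and less of its RNA per cell cannot be told apart.

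Of the 3 regulators, 1 rose and 2 did not pass (33.3% passed, against 34.5% of all genes tested). Bach1, the repressor that competes with Nrf2, had 9.26, 9.15 and 8.88 RPKM in DHC replicates 1 to 3, against 7.91, 6.52 and 6.75 RPKM in control replicates 1 to 3. All 3 DHC libraries were above all 3 control libraries. Bach1 rose 1.29-fold (log2 fold change 0.33 ± 0.08, SE, limma adjusted p = 0.0188). It no longer passed without DHC replicate 2 (adjusted p = 0.0618), control replicate 2 (0.0642) or control replicate 3 (0.0584). Nfe2l2, which encodes Nrf2, had 63.5, 62.2 and 61.4 RPKM with DHC, against 78.2, 67.3 and 67.1 RPKM in control. Its groups did not overlap, but control replicate 1 lay far above the other controls, and the difference did not pass (log2 fold change −0.18, adjusted p = 0.0708). It passed as lower with trimmed-mean scaling (adjusted p = 0.0211), median-of-ratios scaling (0.0259) and limma-voom on recovered reads (0.032). Keap1 had 8.12, 9.40 and 9.47 RPKM with DHC, against 9.87, 10.3 and 11.9 RPKM in control. Its DHC values were all lower than its control values, without passing (−0.22, adjusted p = 0.0952; limma-voom 0.0411). Keap1 RNA stood at 0.144 ± 0.0143 times that of Nfe2l2 with DHC and 0.152 ± 0.0255 times in control, and these ratios overlapped. The ratio of Bach1 to Nfe2l2 was 0.146 ± 0.00118 with DHC and 0.0995 ± 0.0023 in control (SD, n = 3 each), with little spread inside either group. Ratios of this kind do not depend on how libraries are scaled, and they were described without a test.

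**Figure D2:**
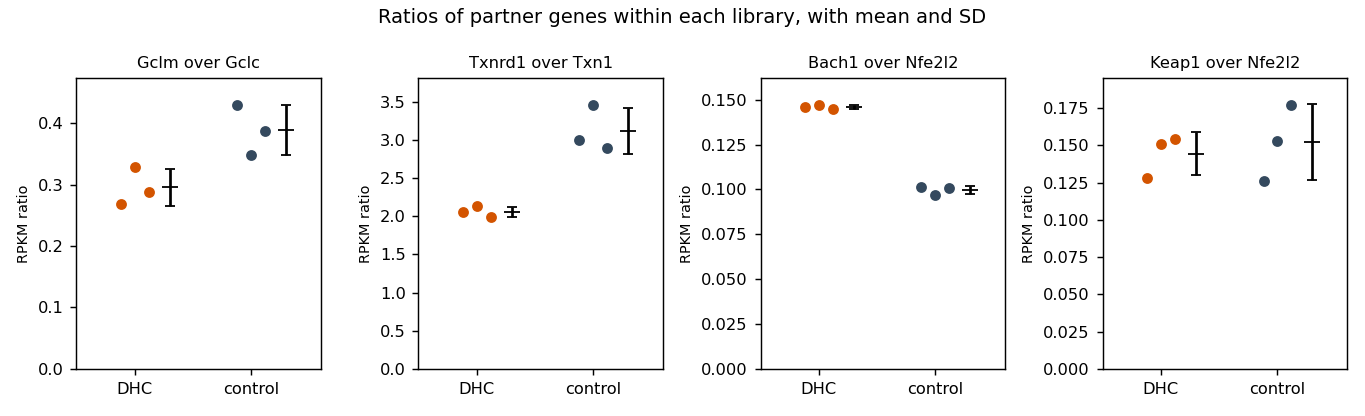
Ratio of the RPKM of a gene to that of its partner (vertical axis, linear, from 0) in each DHC and control library. Points are libraries and black marks are the mean with SD. The DHC and control libraries are apart for Bach1 over Nfe2l2, for Txnrd1 over Txn1 and for Gclm over Gclc, and overlap for Keap1 over Nfe2l2. Each pair that is apart holds a member past the threshold. A further planned pair, Fth1 over Ftl1, is not shown and overlaps, at 39.5 ± 2.9 with DHC and 37.3 ± 5.17 in control.

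Of 10 tested glutathione genes 1 rose, 1 fell and 8 did not pass, and the median log2 fold change was 0.01. The share that passed was 20%, against 34.5% of all genes tested. The transporter that supplies cystine and the ligase that uses cysteine moved in opposite directions. Slc7a11, the cystine-glutamate exchanger that brings in cystine, had 8.64, 8.94 and 8.57 RPKM with DHC, against 12.9, 10.9 and 10.6 RPKM in control. The groups did not overlap, and the largest gap was to control replicate 1. Slc7a11 fell by 0.35 ± 0.08 on the log2 scale (limma adjusted p = 0.0149). Gclc, on Rnor_6.0 chromosome 8 from 85059051 to 85097468, had 27.3, 30.1 and 30.8 RPKM with DHC, against 17.8, 18.6 and 22.0 RPKM in control. Every DHC library was well above the highest control. It rose by 0.58 ± 0.09 on the log2 scale (limma adjusted p = 0.00221), and kept its call under all 14 alternatives tried. Gclm, the modifier subunit that pairs with Gclc, had 7.33, 9.91 and 8.88 RPKM with DHC, against 7.64, 6.46 and 8.51 RPKM in control. The groups overlapped and Gclm did not pass (adjusted p = 0.294). Its level per length was 0.295 ± 0.0308 times that of Gclc with DHC and 0.388 ± 0.041 times in control, with no overlap between the libraries of both groups.

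Of 7 genes of the later steps of glutathione chemistry 0 passed in limma, 0 had an unadjusted p below 0.05 and 0 passed with limma-voom. Gss, which adds glycine to finish the molecule, averaged 4.63 ± 0.381 RPKM with DHC and 4.10 ± 0.291 RPKM in control (SD, n = 3 each), and did not pass. Gsr, which reduces oxidized glutathione with NADPH, averaged 19.3 ± 0.458 RPKM with DHC and 20.0 ± 1.15 RPKM in control. Of the peroxidases that spend glutathione, Gpx1 averaged 29.9 ± 0.996 RPKM with DHC and 32.0 ± 3.14 RPKM in control. Gpx4, which reduces lipid peroxides in membranes, averaged 60.2 ± 6.10 RPKM with DHC and 56.5 ± 2.84 RPKM in control, over exons that overlap those of Sbno2. Among the transferases that couple glutathione to reactive compounds, Gstm1 was the most abundant per length at 131.6 ± 4.28 RPKM with DHC and 133.5 ± 4.71 RPKM in control. Gsta4, which handles the lipid aldehyde hydroxynonenal, averaged 11.6 ± 0.971 RPKM with DHC and 11.2 ± 0.959 RPKM in control. Gstp1 was low, at 2.71 ± 0.505 RPKM with DHC and 2.81 ± 0.494 RPKM in control. The adjusted p-values of these 7 genes lay between 0.262 and 0.854. Transferases have close relatives in the genome, so reads shared between copies could lower or blur their values.

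Of 11 thioredoxin and peroxiredoxin genes 2 rose, 2 fell and 7 did not pass, with a median log2 fold change of 0.10. The share that passed was 36.4%, against 34.5% of all genes tested. The 3 and 3 values did not overlap for 6 of them (54.5%), against 49.7% of all genes tested. Txnrd1, the cytosolic selenoprotein that reduces thioredoxin with NADPH, had 186.7, 199.0 and 199.8 RPKM with DHC, against 249.2, 266.2 and 279.3 RPKM in control. The groups lay far apart. Txnrd1, on Rnor_6.0 chromosome 7 from 26946125 to 26984400, fell by 0.44 ± 0.05 on the log2 scale (limma adjusted p = 0.0009). Txn1, the thioredoxin it reduces, had 90.9, 93.5 and 100.3 RPKM with DHC, against 82.9, 77.0 and 96.7 RPKM in control, and did not pass (adjusted p = 0.196). Without control replicate 3 Txn1 passed as higher (log2 fold change 0.24, adjusted p = 0.0333). The ratio of reductase to thioredoxin RNA was 2.06 ± 0.068 with DHC and 3.12 ± 0.301 in control, and the libraries of both groups did not overlap. The mitochondrial pair differed little between groups. Txn2 averaged 27.3 ± 0.775 RPKM with DHC and 26.0 ± 1.86 RPKM in control (adjusted p = 0.427). Txnrd2 averaged 2.80 ± 0.416 RPKM with DHC and 3.07 ± 0.348 RPKM in control (0.529).

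Peroxiredoxins remove hydrogen peroxide through a reactive cysteine, and the 6 family members were not moved alike. Prdx1, the abundant cytosolic form, had 284.1, 288.2 and 288.1 RPKM with DHC, against 230.4, 231.4 and 231.5 RPKM in control. Both groups were tight and lay well apart. It rose by 0.31 ± 0.04 on the log2 scale (limma adjusted p = 0.00058). Prdx3, the mitochondrial form, had 41.4, 41.5 and 39.9 RPKM with DHC, against 34.9, 34.6 and 36.9 RPKM in control, and rose 1.15-fold (adjusted p = 0.0162). The call for Prdx3 ended with trimmed-mean scaling (adjusted p = 0.0752) and median-of-ratios scaling (0.0592), and without DHC replicate 2 (0.066), control replicate 2 (0.0626) or both libraries numbered 1 (0.0555). Prdx5, found in mitochondria, peroxisomes and cytosol, had 157.6, 152.8 and 151.6 RPKM with DHC, against 179.7, 178.3 and 181.5 RPKM in control. Here every DHC library was below every control library, the reverse of Prdx1. Prdx5 fell by 0.22 ± 0.04 on the log2 scale (limma adjusted p = 0.00377).

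Prdx4, the form of the endoplasmic reticulum, had 42.7, 44.3 and 46.5 RPKM with DHC, against 33.7, 37.2 and 42.1 RPKM in control. Its lowest DHC library was barely above its highest control, and it did not pass (log2 fold change 0.24, adjusted p = 0.0551). It passed as higher with limma-voom (adjusted p = 0.0353), with a filter at 5 RPKM (0.0459) and without control replicate 3 (0.0169). Prdx2 averaged 84.0 ± 1.89 RPKM with DHC and 78.5 ± 10.6 RPKM in control, where replicate 1 at 66.4 RPKM was below the other libraries (adjusted p = 0.414). Prdx6, which uses glutathione rather than thioredoxin, averaged 8.41 ± 0.962 RPKM with DHC and 6.97 ± 0.442 RPKM in control (adjusted p = 0.0901). It passed as higher without DHC replicate 1 (0.0294) and without both libraries numbered 1 (0.0283), and its exons overlap those of Slc9c2. Srxn1, which repairs over-oxidized peroxiredoxins and is a classical Nrf2 target, had 9.81, 14.4 and 13.4 RPKM with DHC, against 16.5, 15.4 and 17.3 RPKM in control. All DHC values were lower, but DHC replicate 1 stood below the other DHC libraries and Srxn1 did not pass (log2 fold change −0.37, adjusted p = 0.0594). It passed as lower with trimmed-mean scaling (adjusted p = 0.0402), median-of-ratios scaling (0.0423) and limma-voom (0.0341), with a filter at 5 RPKM (0.0485) and without DHC replicate 2 (0.0425).

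Of 3 tested genes in the NADPH supply group 0 passed in limma, 0 had an unadjusted p below 0.05 and 0 passed with limma-voom. The group name does not mean that each of these enzymes makes NADPH itself. Their log2 fold changes lay between 0.00 and 0.04. Tkt, the transketolase of the pentose phosphate pathway, averaged 294.0 ± 28.2 RPKM with DHC and 291.7 ± 24.1 RPKM in control (limma adjusted p = 0.939). Its lowest library in both groups was the one numbered 1, at 261.5 RPKM with DHC and 263.9 RPKM in control. Taldo1, the transaldolase, averaged 69.4 ± 1.16 RPKM with DHC and 69.5 ± 6.10 RPKM in control (0.987). Me1, the cytosolic malic enzyme, averaged 29.1 ± 0.616 RPKM with DHC and 28.4 ± 1.44 RPKM in control (0.653). The signs of Tkt, Taldo1 and Me1 all turned negative with trimmed-mean scaling, at log2 fold changes of −0.06, −0.06 and −0.03.

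Of the 4 iron and haem genes, 1 fell (25% passed, against 34.5% of all genes tested). Hmox1, haem oxygenase 1, which opens haem to biliverdin, iron and carbon monoxide, had 51.7, 57.2 and 59.6 RPKM with DHC, against 67.6, 90.9 and 83.1 RPKM in control. The control libraries spread widely, yet the lowest of them was above the highest DHC library. Hmox1, on Rnor_6.0 chromosome 19 from 14508616 to 14515456, fell by 0.51 ± 0.11 on the log2 scale (limma adjusted p = 0.00981). Blvrb, a biliverdin reductase, averaged 60.2 ± 3.34 RPKM with DHC and 59.7 ± 5.39 RPKM in control (adjusted p = 0.908). Fth1, the ferritin heavy chain that stores iron, averaged 357.4 ± 13.8 RPKM with DHC and 337.1 ± 18.7 RPKM in control (0.255), over exons that overlap those of Best1. The row named Ftl1 lies on Rnor_6.0 chromosome 5 as a single exon of 908 bases, while RefSeq places the ferritin light chain gene on chromosome 1 of the assembly GRCr8. Its values, 9.07 ± 0.763 RPKM with DHC and 9.13 ± 0.959 RPKM in control, may therefore not be those of the spliced light chain RNA.

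Of the 5 remaining target and defence genes 2 rose and 1 fell (60% passed, against 34.5% of all genes tested). Sod2 had 48.2, 54.4 and 50.1 RPKM with DHC, against 38.1, 41.5 and 41.9 RPKM in control, and every DHC library was above every control. It rose by 0.32 ± 0.06 on the log2 scale (limma adjusted p = 0.00696). Sod1, the cytosolic copper and zinc enzyme, had 362.8, 405.6 and 415.4 RPKM with DHC, against 331.3, 343.2 and 358.0 RPKM in control. The gap between the groups was small, and Sod1 rose 1.15-fold (adjusted p = 0.0402). That call ended with trimmed-mean scaling (0.174) and median-of-ratios scaling (0.137), with no filter on low values (0.0877), and without DHC replicate 2 (0.132), DHC replicate 3 (0.122), control replicate 1 (0.0987), control replicate 2 (0.101) or control replicate 3 (0.0529). Of the members described here as mitochondrial, Sod2 and Prdx3 rose, Prdx5 fell, and Txn2 and Txnrd2 did not pass. This grouping was not planned and does not hold every member that can act in mitochondria. It is too small to set against the 34.5% of all genes tested that passed. The share of mitochondrially encoded reads, given above, was higher with DHC, and its part in these results was not tested. Cat, the peroxisomal catalase, averaged 44.4 ± 0.625 RPKM with DHC and 42.6 ± 2.39 RPKM in control (adjusted p = 0.41).

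Osgin1 differed most among the members. It had 1.89, 1.74 and 1.54 RPKM with DHC, against 4.79, 5.95 and 6.08 RPKM in control, and the lowest control was far above the highest DHC library. It fell by 1.28 ± 0.11 on the log2(RPKM + 1) scale (limma adjusted p = 0.000174), which understates the 3.25-fold ratio of means because the gene is low. Osgin1 lies on Rnor_6.0 chromosome 19 from 52077109 to 52085496. Nqo1, the quinone reductase often used as a readout of Nrf2, had 62.9, 76.1 and 76.2 RPKM with DHC, against 74.8, 80.0 and 83.4 RPKM in control. The groups overlapped, and Nqo1 did not pass (log2 fold change −0.15, adjusted p = 0.202).

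**Figure D3:**
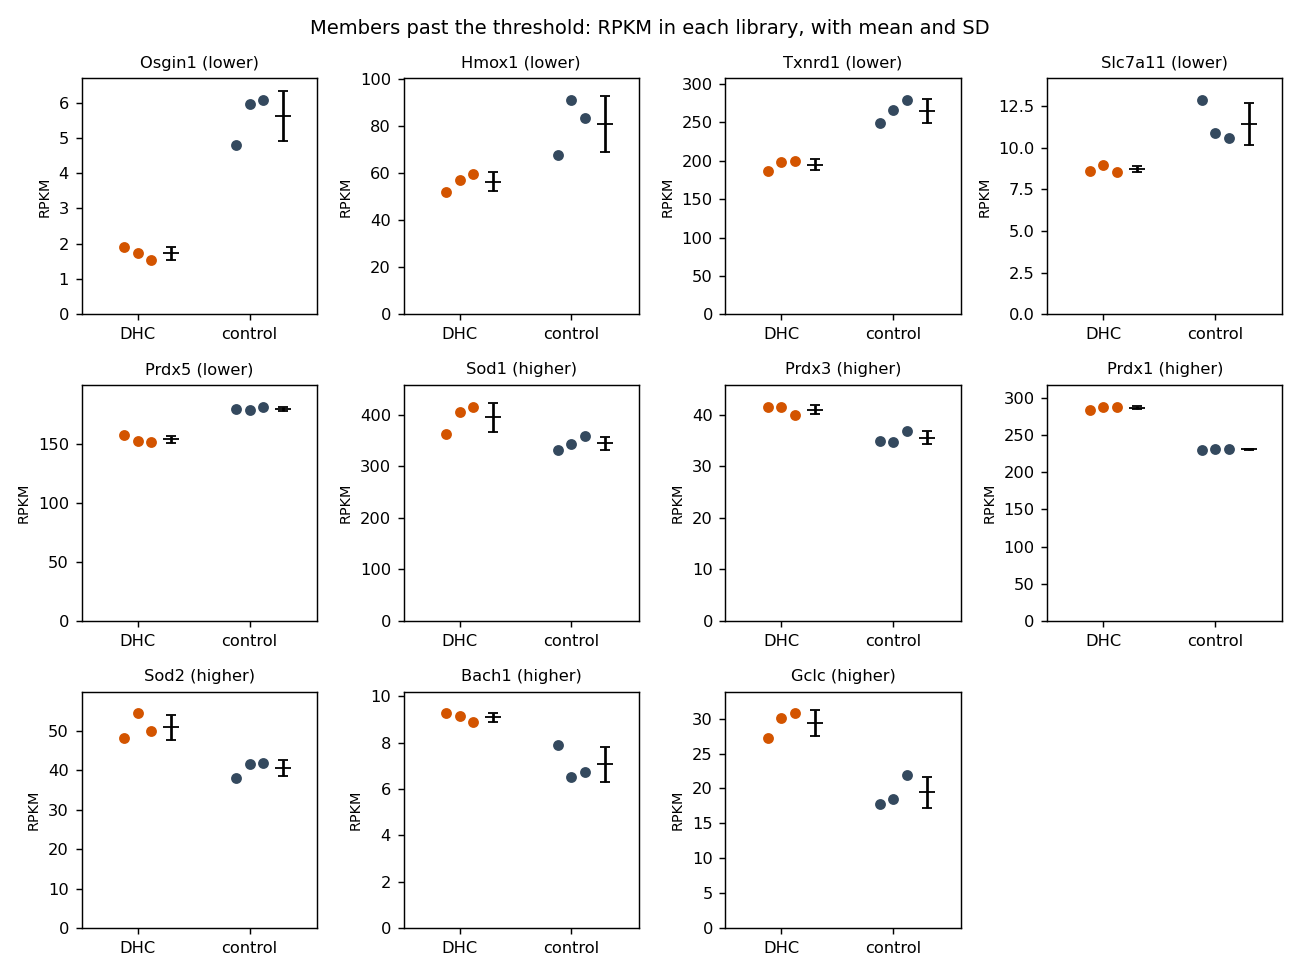
RPKM (vertical axis, linear, from 0) in each DHC and control library for the 11 members past the threshold, ordered from the most lowered, Osgin1, to the most raised, Gclc. Points are libraries and black marks are the mean with SD. In all 11, which were picked by their adjusted p, the 3 DHC values lie apart from the 3 control values. Of the 36 tested members 15 (41.7%) did not overlap, against 49.7% of all genes tested.

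Per length, the most abundant members were Sod1, Fth1, Tkt, Txnrd1 and Prdx1, between 231.1 and 344.2 RPKM in control. Summed over role groups, thioredoxin and peroxiredoxin genes took 1317.7 ± 29.5 RPM with DHC and 1505.6 ± 68.0 in control (SD, n = 3 each). The 3 DHC sums, 1283.8, 1331.2 and 1338.1, were below the control sums of 1434.8, 1511.4 and 1570.5. This sum is weighted by transcript length, and Txnrd1, with an exon length of 3430 bases, is its longest gene. Txnrd1 alone took 669.4 ± 25.3 RPM with DHC and 908.6 ± 51.9 RPM in control. Without it the order of the groups was the opposite under library totals. The other 10 genes then summed to 643.6, 648.5 and 652.8 RPM with DHC, against 580.1, 598.5 and 612.3 RPM in control. That gap depends on the scaling. Trimmed-mean factors were 1.028 for DHC replicate 1 and 0.967 for control replicate 3, and dividing by them makes the groups overlap. Setting Txnrd1 apart was not planned beforehand. Glutathione genes summed to 482.5 ± 18.1 RPM with DHC and 474.2 ± 4.37 in control, where the groups overlapped. All 37 members summed to 3846.2 ± 147.0 RPM with DHC and 4019.1 ± 157.1 in control, also with overlap.

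Antioxidant response elements were looked for in promoter windows from RefSeq on the assembly GRCr8, which reach from 250 bases before to 50 bases after a start site. Windows were matched by symbol for 33 of the 38 members, and not for Gsr, Prdx6, Hmox1, Ftl1 and Fth1. The core TGACNNNGC, on either strand, was present for 9 of the 33 members (27.3%), against 13.1% of all 27457 genes with a window and 16.3% of the 7173 of them tested here. The members were chosen by name, many as Nrf2 targets, so a higher share may follow from that choice, which was not tested. The 9 were Gclm, Gstp1, Txnrd1, Prdx1, Prdx4, Prdx5, Me1, Sod2 and Nfe2l2. Among the 10 members past the threshold that had a window, 4 held the core. They are printed below with the core in capitals because 2 of them rose and 2 fell, and Gclm is added as the partner of Gclc. In these 5 the core reads on the strand opposite to the gene, so the capitals show its reverse complement, and each line runs 5′ to 3′ on the strand of the gene.
Prdx1 (rose), chr5:135383746-135383804, plus strand: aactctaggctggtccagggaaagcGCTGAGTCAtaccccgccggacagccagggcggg
Sod2 (rose), chr1:50050170-50050228, minus strand: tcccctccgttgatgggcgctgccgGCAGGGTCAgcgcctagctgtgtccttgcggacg
Txnrd1 (fell), chr7:22755949-22756007, minus strand: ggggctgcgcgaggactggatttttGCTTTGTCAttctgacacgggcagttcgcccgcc
Prdx5 (fell), chr1:213531995-213532053, minus strand: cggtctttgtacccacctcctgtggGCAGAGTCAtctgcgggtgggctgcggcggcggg
Gclm (did not pass), chr2:213031938-213031996, plus strand: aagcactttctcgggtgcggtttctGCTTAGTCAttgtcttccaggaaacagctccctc

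The match began 135 bases before the start site in Prdx1, 35 bases before in Sod2, 78 bases before in 1 of the 2 windows of Txnrd1, 1 base before in Prdx5 and 172 bases before in Gclm. The core can overlap the AP-1 motif TGANTCA, which FOS and JUN proteins bind, and it did so in Prdx1, Gstp1 and Me1. TGANTCA was present for 6 of the 33 members (18.2%), against 8.04% of all genes with a window and 5.14% of those tested here. The limit set by the choice of members holds here too. A match of letters is a description and shows no binding, and windows without one say nothing of sites farther away.

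Of 93 further genes of these pathways, in a list apart from the 38, 81 had a row and 66 were tested. Of these 10 rose and 7 fell, 25.8%, against 34.5% of all genes, and their median log2 fold change was 0.09. With trimmed-mean or median-of-ratios scaling 8 rose and 7 fell. Among the 10 further regulators 5 fell and 1 rose (60% passed, against 34.5% of all genes). Nfe2l1, a relative of Nrf2 that drives proteasome genes, had 86.4, 79.9 and 77.8 RPKM with DHC, against 124.6, 125.0 and 126.0 RPKM in control. The groups lay far apart, and it fell by 0.62 ± 0.05 on the log2 scale (limma adjusted p = 0.000116). The small Maf partner genes differed among themselves. Maff averaged 11.8 ± 0.271 RPKM with DHC and 17.3 ± 1.75 RPKM in control and fell (adjusted p = 0.00261). Mafg averaged 99.1 ± 3.97 RPKM with DHC and 127.9 ± 1.01 RPKM in control and fell (0.000773), while Mafk averaged 120.6 RPKM with DHC and 118.8 RPKM in control and did not pass (0.734). Bach2, the lymphoid relative of Bach1, averaged 1.06 ± 0.152 RPKM with DHC and 2.59 ± 0.515 RPKM in control and fell (0.00374), in the other direction from Bach1. Rbx1, the ring protein of the ubiquitin ligase that Keap1 serves, averaged 148.1 ± 5.57 RPKM with DHC and 109.8 ± 10.0 RPKM in control and rose (0.00288). Sqstm1, the p62 adaptor that binds Keap1, averaged 703.7 ± 18.2 RPKM with DHC and 832.2 ± 43.6 RPKM in control and fell (0.00871).

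Slc3a2, the chain that pairs with Slc7a11 in the cystine exchanger and also with other amino acid transporters, had 256.2, 248.6 and 251.0 RPKM with DHC, against 300.8, 310.0 and 320.7 RPKM in control. Like Slc7a11 it was lower in every DHC library, and it fell by 0.30 ± 0.04 on the log2 scale (limma adjusted p = 0.00137). Of 12 further iron and haem genes 4 rose and 1 fell (41.7% passed, against 34.5% of all genes tested). Cpox, which acts late in haem synthesis, averaged 20.3 ± 1.43 RPKM with DHC and 32.5 ± 1.27 RPKM in control and fell (adjusted p = 0.000306). Fech, which inserts iron to finish haem, averaged 5.82 ± 0.424 RPKM with DHC and 3.92 ± 0.395 RPKM in control and rose (0.00736). Blvra, the other biliverdin reductase, averaged 24.3 ± 2.02 RPKM with DHC and 19.2 ± 0.298 RPKM in control and rose (0.0107), and Hmox2, the constitutive haem oxygenase, also rose (0.00593). Hmox1 and Hmox2 had opposite directions, at 56.1 and 34.5 RPKM with DHC, against 80.6 and 27.9 RPKM in control. Ireb2, an iron regulatory protein, averaged 15.6 ± 0.945 RPKM with DHC and 12.4 ± 1.16 RPKM in control and rose (0.022), but did not pass without DHC replicate 3 (0.0733), control replicate 2 (0.0713) or control replicate 3 (0.0685).

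Glrx5, a mitochondrial glutaredoxin of iron-sulphur cluster assembly, had 11.1, 12.6 and 13.3 RPKM with DHC, against 6.18, 8.54 and 8.47 RPKM in control. Every DHC library was above every control, and it rose by 0.62 ± 0.12 on the log2 scale (limma adjusted p = 0.00745). Glrx5 and Slc3a2 were the 2 genes past the threshold among 17 further glutathione genes tested (11.8%). Of 9 further NADPH genes 3 passed (33.3%, near the 34.5% of all genes) and all 3 rose. In limma 0 fell, as did 0 at an unadjusted p below 0.05 and 0 with limma-voom. Idh1, the cytosolic isocitrate dehydrogenase that makes NADPH, averaged 32.7 ± 2.14 RPKM with DHC and 24.0 ± 1.55 RPKM in control and rose (adjusted p = 0.00307). The others were Me2 and Nadk, at 0.0286 and 0.0397, and whether they kept their calls under other scalings is not given here. Of 11 further thioredoxin genes 1 rose (9.09%), Txndc5, a disulphide isomerase of the endoplasmic reticulum. Of 7 further quinone, carbonyl and superoxide genes 0 passed in limma or limma-voom, and 1 was higher at an unadjusted p below 0.05.

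**Figure D4:**
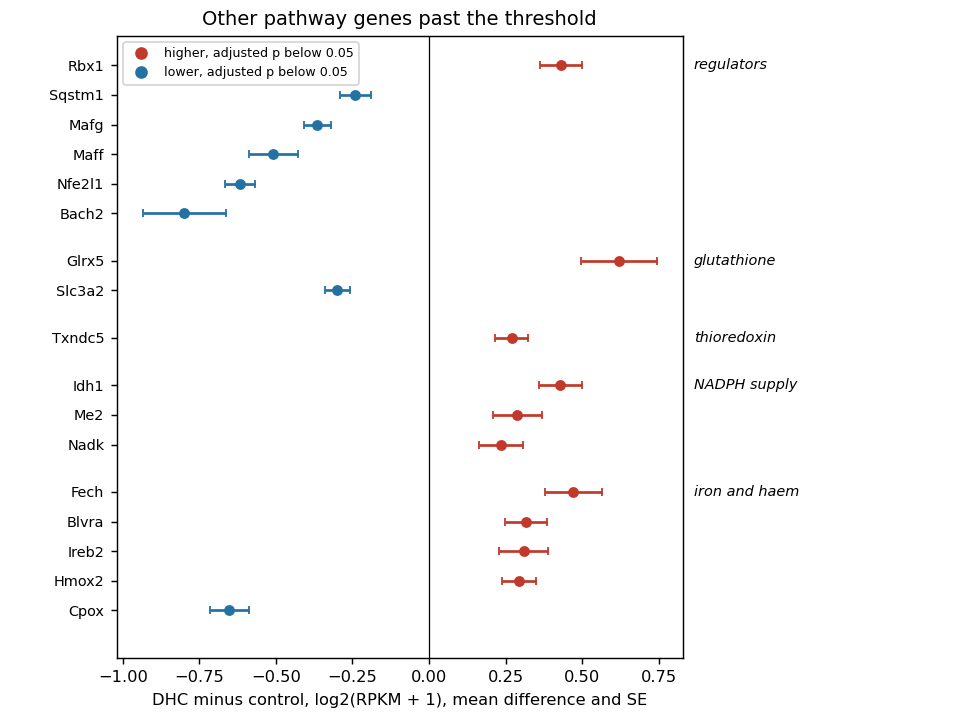
Difference between DHC and control libraries on the log2(RPKM + 1) scale (horizontal axis) for the 17 further pathway genes past the threshold, with standard errors. The 10 in red rose and the 7 in blue fell, and 5 of the 7 are regulators. Bach2 at −0.80 is the lowest and Glrx5 at 0.62 the highest. Of all 66 further genes tested 25.8% passed, against 34.5% of all genes tested.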

How the data were processed

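The submitters' processing notes name Rnor_6.0 as the build and list Trimmomatic 0.36, Subread 1.5.1 with featureCounts, and edgeR 3.12.1. No aligner, annotation release or strand setting is given in the sources used here. The deposited values are RPKM, as the values show: multiplied by exon length, 100% are whole reads within 0.01. The authors' RPKM carry no scaling beyond library totals, and depend on the exon length used.

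Genes averaging at least 1 RPKM over 6 libraries (10667) were tested with limma 3.58.1 (R 4.3.3, trended variance) on log2(RPKM + 1), DHC minus control, with Benjamini-Hochberg adjustment and a threshold of 0.05. Fold values are ratios of mean RPKM. The fit was first run on simulated reads with the same spread set for every gene. The changes set there were larger than most found here, so that run says nothing on small changes. Alternatives were another pseudocount, other filters and scalings, limma-voom on recovered reads, a replicate block and left-out libraries. All 38 members are named. Of the further genes, the 12 with the largest change among those past the threshold without overlap are named with values, and others named were chosen after their values were seen. The members and lists were chosen with earlier results of these data known. Sequences are RefSeq's, on GRCr8. Some items are not reported here.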

Additional observations from a re-analysis of the deposited data

How the results depend on the processing

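Of the 11 members past the threshold, 8 kept direction and call under every alternative run: Slc7a11, Gclc, Txnrd1, Prdx1, Prdx5, Hmox1, Sod2 and Osgin1. Bach1, Prdx3 and Sod1 did not, as given with their values. Over all genes, 1285 instead of 1968 rose under scaling by trimmed means, and leaving out 1 library gave 1195 to 1755. Members that rose numbered 6, and 3 to 7 with 1 library left out. Members that fell numbered 5, but 8 with limma-voom. The median change over all genes was 0.05 with library totals and 0.00 with trimmed means or median-of-ratios factors.

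With the replicate block 8 members fell, as Nfe2l2 (0.0344), Keap1 (0.0437) and Nqo1 (0.0452) also passed, and 16 further pathway genes rose instead of 10; Prdx4 passed as higher (0.0151). Deviations from the group means correlated at 0.228 between the libraries numbered 1. For numbers 2 and 3 the correlations were −0.0495 and 0.0828, inside the range for libraries of unlike number, −0.183 to 0.106. On the second principal component, though, same-numbered DHC and control libraries lay close. They were at 11.53 and 12.12 for number 1, −2.15 and −2.49 for number 2, and −8.35 and −10.67 for number 3. The main fit did not pair the samples by number, and whether the numbers mark a shared batch was not tested.

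Signs turned only for members that had not passed. Under scaling by trimmed means these were Gsta4 (−0.01), Taldo1 (−0.06), Tkt (−0.06), Me1 (−0.03), Blvrb (−0.05) and Cat (−0.00), under median-of-ratios factors Gsta4 (−0.00), Taldo1 (−0.05), Tkt (−0.05), Me1 (−0.02) and Blvrb (−0.04), with limma-voom Taldo1 (−0.00) and Ftl1 (0.00), and without both libraries numbered 1 Prdx2 (−0.01), Taldo1 (−0.07) and Blvrb (−0.02). With 1 library left out, the log2 fold change ran from −0.01 to 0.11 for Gsta4, −0.05 to 0.00 for Gstm1, −0.15 to 0.05 for Gstp1, −0.01 to 0.17 for Prdx2, −0.07 to 0.06 for Taldo1, −0.06 to 0.09 for Tkt, −0.01 to 0.06 for Me1, −0.09 to 0.04 for Ftl1 and −0.06 to 0.06 for Blvrb. The cause of these shifts was not tested.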
